A study of Mus musculus with 24 samples.

Results

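The immediate early genes described here are Fos, Fosb, Jun, Junb, Egr1, Atf3, Ier2, Dusp1, Klf4 and Nr4a1. They were chosen by symbol, and all 10 were among the 13803 genes measured in 24 sequenced libraries of stromal cells sorted from embryonic mouse kidneys. The cells carried FoxD1Cre-eGFP, a Cre recombinase fused to a green fluorescent protein under the promoter of Foxd1, a transcription factor of the kidney stroma, and were collected by fluorescence-activated cell sorting. The study compared beta-catSD cells, deficient in beta-catenin, and beta-catSO cells, in which it is stabilised, with wild-type cells.

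Immediate early genes are transcribed within minutes of a growth factor, calcium, stress or mechanical signal, because the factors that switch them on are already present in the cell. Kinases of the MAPK cascades activate the serum response factor, its ternary complex partners and CREB, and these start the transcription of Fos, Egr1, Nr4a1 and their relatives. Fos and Jun proteins pair to form AP-1, which drives a second wave of genes, while Dusp1 and the Sprouty proteins damp the cascade. These transcripts are also known to rise while tissue is digested into single cells, and the kidneys here were digested with warm collagenase and passed through a needle before sorting.

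The 8 groups held 3 libraries each. SD (beta-catSD) and its wild-type were on the C57BL/6 background, SO (beta-catSO) and its wild-type on the CD1 background, and all were collected from embryos of E12.5 and of E13.5 (days of gestation). Every group, the wild-types included, carried FoxD1Cre-eGFP according to the series record. Genotype could be compared with wild-type of the same strain, but strain went with the line, so SD and SO could not be compared directly. The labels do not name the beta-catenin alleles. Some cells were sorted a second time, and the labels do not say which. Nor do they say whether the libraries of a group came from separate embryos or litters, so the p-values measure only the spread between these libraries, which may be technical.

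Library totals ran from 6184257 to 21168300 reads assigned to genes, and levels are given as log2 CPM, the log2 of counts scaled to library size. Axin2, a direct target of beta-catenin, lay between 3.30 and 4 log2 CPM in the 6 SD libraries, between 4.42 and 5.00 in the 12 wild-type libraries and between 7.85 and 8.78 in the 6 SO libraries, with no overlap between these sets. Ctnnb1, the gene of beta-catenin, was lower in every SD library than in wild-type C57BL/6 of the same stage, at 10.36 to 10.66 against 10.69 to 10.86 log2 CPM at E12.5 and 10.34 to 10.38 against 10.51 to 10.54 at E13.5. Which of its exons the allele affects is not stated, so these levels do not measure the deletion. All 10 stromal markers listed (among them Foxd1, Tcf21 and Pdgfrb) were present in every group, with a summed level of 7661 to 12313 CPM per library. Other cell types left RNA at lower levels. One wild-type C57BL/6 E12.5 library held 4556 CPM of 7 liver transcripts against 15.6 and 18.4 CPM in the others of its group, and one wild-type CD1 E13.5 library held 825.3 CPM of 10 endothelial transcripts against at most 85.9 in the others. In bulk RNA, fewer cells of a type and less RNA per cell cannot be told apart.

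The promoters of 5 members are shown, a choice among those whose levels moved together across libraries or differed between genotypes. Klf4 and Dusp1 were also such members and were searched, but are not shown. The sequences are the 250 bases before the transcription start, from RefSeq on GRCm38.p6 and read 5′ to 3′ along the gene. Capitals mark the core of the cyclic AMP response element (TGACG or its complement CGTCA), in Fos also the TATA box (TATAAA), and in Jun the variant of that element known to bind Jun and ATF proteins (TGACATCA). The variant was added to the search, and the capitals were chosen, after a first search had shown no TGACG in Jun. Fos lies on chr12:85473640-85473889 (plus strand), Fosb on chr7:19310046-19310295 (minus), Jun on chr4:95052223-95052472 (minus), Junb on chr8:84978749-84978998 (minus) and Nr4a1 on chr15:101266596-101266845 (plus).
Fos: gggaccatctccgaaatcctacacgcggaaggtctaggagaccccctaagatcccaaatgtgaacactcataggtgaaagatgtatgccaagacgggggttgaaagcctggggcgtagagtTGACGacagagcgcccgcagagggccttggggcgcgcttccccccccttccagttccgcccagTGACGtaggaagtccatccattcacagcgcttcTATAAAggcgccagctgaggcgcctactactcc
Fosb: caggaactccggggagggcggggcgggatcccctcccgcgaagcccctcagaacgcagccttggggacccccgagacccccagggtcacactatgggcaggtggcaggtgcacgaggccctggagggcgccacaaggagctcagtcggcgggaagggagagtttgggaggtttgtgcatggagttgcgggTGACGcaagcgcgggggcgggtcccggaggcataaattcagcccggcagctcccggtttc
Junb: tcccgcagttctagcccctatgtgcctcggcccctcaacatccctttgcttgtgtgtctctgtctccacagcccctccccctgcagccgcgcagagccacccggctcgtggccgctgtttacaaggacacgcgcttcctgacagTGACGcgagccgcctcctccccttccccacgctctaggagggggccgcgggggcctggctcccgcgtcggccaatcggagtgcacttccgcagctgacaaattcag
Nr4a1: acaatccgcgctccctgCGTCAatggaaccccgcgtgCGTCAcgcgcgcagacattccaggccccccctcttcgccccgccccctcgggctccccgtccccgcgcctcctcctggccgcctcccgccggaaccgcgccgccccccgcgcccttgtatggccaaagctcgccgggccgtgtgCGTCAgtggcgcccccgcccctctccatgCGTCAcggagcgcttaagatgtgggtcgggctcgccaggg
Jun: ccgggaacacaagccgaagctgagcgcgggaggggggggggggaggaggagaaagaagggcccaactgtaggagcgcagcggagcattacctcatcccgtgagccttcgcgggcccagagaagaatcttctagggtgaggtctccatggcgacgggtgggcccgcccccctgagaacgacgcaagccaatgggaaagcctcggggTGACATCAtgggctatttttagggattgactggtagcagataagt

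In these letters the Fos promoter held TGACG 129 and 66 bases before the start and TATAAA 33 bases before it. Fosb held TGACG 60 bases and Junb 106 bases before the start. In Nr4a1 the complement CGTCA stood 4 times, at 233, 213, 69 and 40 bases. Jun held no TGACG on either strand, and its TGACATCA stood 45 bases before the start. Of the 8 members whose promoters were searched, on both strands, 7 held the TGACG core, which occurred in 17.8% of 32851 RefSeq mouse promoter windows of the same length. The full element TGACGTCA, which contains that core, was found in Dusp1 (1 of 8) and in 1.55% of all promoters. TATAAA was found in 1 of 8 against 12.4%, CCAAT in 2 against 33.8%, and TGACATCA in 1 against 2.93%. The AP-1 site TGACTCA (4.46% of all promoters), the TCF/LEF site CTTTGAT through which beta-catenin acts (3.21%) and the CArG box of the serum response factor (1.47%) were in none of the 8 windows, which says only that these letters are not in these 250 bases. Matches are descriptions of sequence. The promoters of Egr1 and Ier2 were not searched here.

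Per kilobase of exon, Ier2 and Jun were the most abundant members, with median levels over the 24 libraries of 33.1 and 29.2 CPM per kb. Klf4 followed at 12.4 and Egr1 at 9.37 CPM per kb. The other members had medians of 3.62 (Dusp1), 2.63 (Atf3), 2.48 (Fos), 2.13 (Junb), 1.62 (Nr4a1) and 0.232 CPM per kb (Fosb). Fosb had no read in one wild-type CD1 E13.5 library and one SO E12.5 library, which allows up to 3 reads there (counting error only), so its lowest values are set by the 0.5 added to each count.

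**Figure D1:**
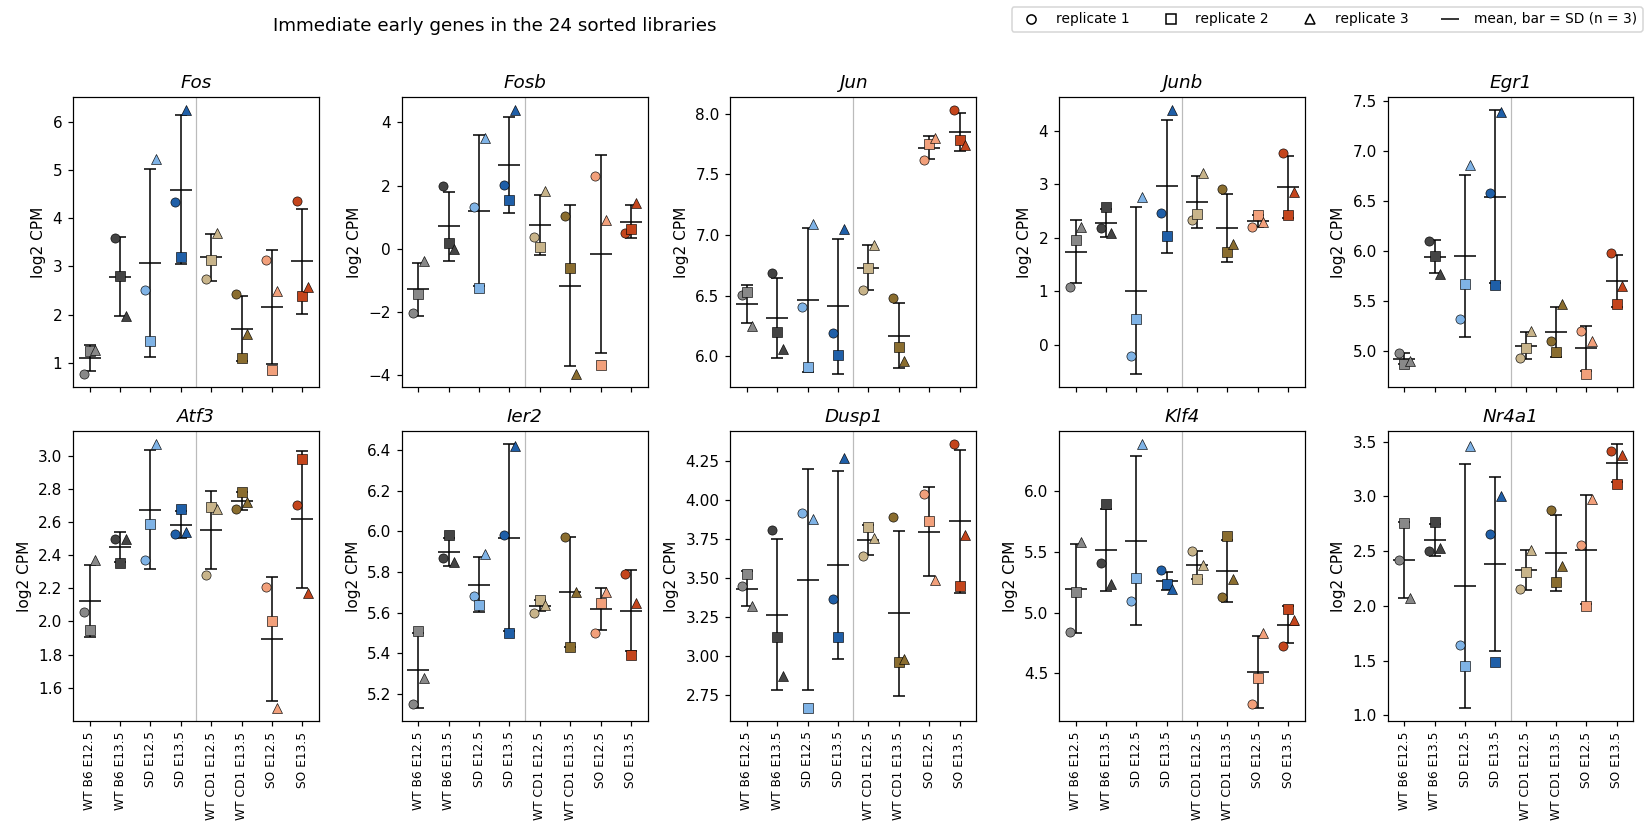
Level of each immediate early gene (log2 CPM, vertical axis, a scale of its own in each panel) in the 8 groups; each point is a library, its shape the replicate number, and the line and bar the mean and SD of 3 libraries. Jun in SO stands above every other library, and SD replicate 3 (triangles) is the highest library of its group for 9 of 10 genes at E12.5 and 8 of 10 at E13.5.

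The first question was which members differed between mutant and wild-type stroma. Jun rose and Klf4 fell in SO. Fos and Egr1 were higher in SD in the mean of stages, but these 2 calls were lost under several alternatives. In SO, taken as the mean of both stages, 2 of 10 members passed the test (adjusted p under 0.05, here "called"), beside 18.5% of all genes tested. Within stages 2 of 10 were called at E12.5, beside 8.16% of all genes, and 1 of 10 at E13.5, beside 15.4%. The median log2 difference of the members in SO was 0.22, against 0.00 over all genes. In SD 2 of 10 were called in the mean of stages, beside 7.17% of all genes, with a median difference of 0.22 against 0.00. With voom weights no member was called in that mean. Within stages none of the 10 was called in SD, beside 1.72% of all genes at E12.5 and 3.4% at E13.5. At an unadjusted p under 0.05 there were 4 members at E12.5, beside 13.9% of all genes, and 1 at E13.5, beside 14.6%, and none was called with voom weights at either stage. Nothing is read from counts this small over 10 genes, and the members are described singly.

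Groups whose 3 libraries all lay beyond the other 3 were counted as well. In SD this held for 4 members at E12.5 (Atf3, Egr1, Fos and Ier2, all above wild-type), beside 16% of all genes in either direction, and for Atf3 alone at E13.5, beside 21.2%. In SO it held for 3 at E12.5 (Jun above, Atf3 and Klf4 below), beside 31.1% of all genes. At E13.5 it held for 3 (Jun and Nr4a1 above, Klf4 below), beside 27.9%. The SD and wild-type values of Atf3 nearly touched at E12.5, at 2.369 against 2.368 log2 CPM.

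**Figure D2:**
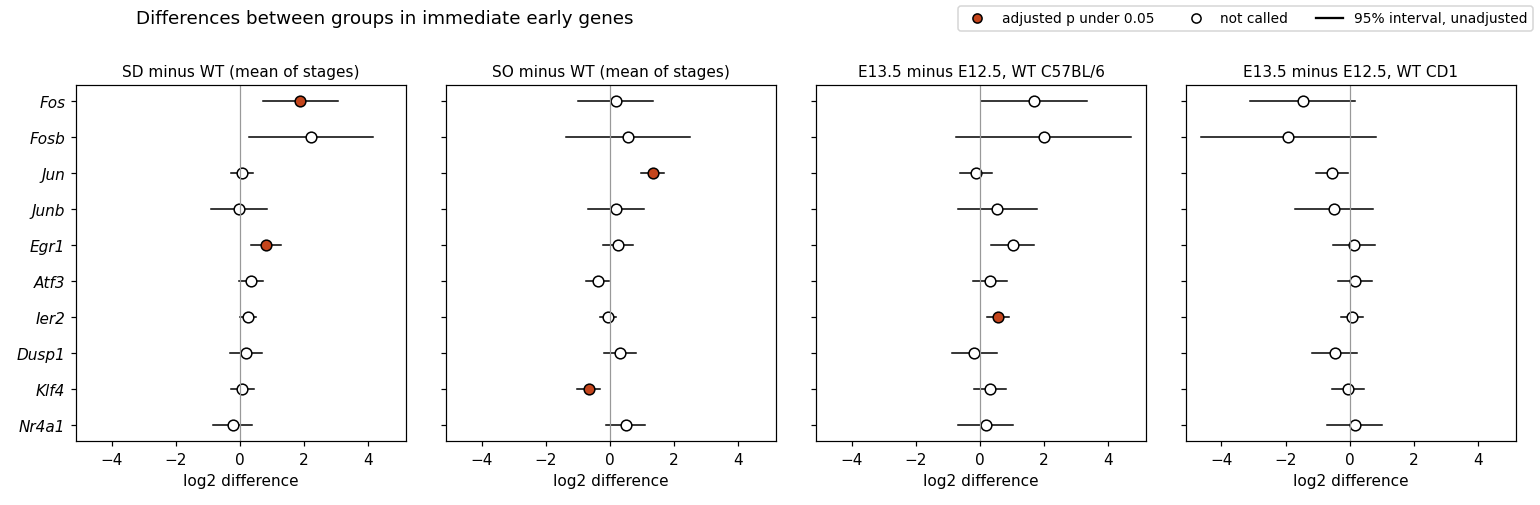
Log2 difference of each immediate early gene (horizontal axis) in 4 comparisons, as a point with its unadjusted 95% interval; filled points passed an adjusted p under 0.05. Jun (1.33) and Klf4 (-0.66) are filled in SO, Fos (1.89) and Egr1 (0.82) in SD and Ier2 (0.58) between stages in wild-type C57BL/6, and the widest intervals are those of Fosb and Fos.

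Jun encodes the AP-1 subunit that binds DNA with Fos or with a second Jun protein. Its gene lies on chr4:95049034-95052222 (GENCODE M21, GRCm38, minus strand) and overlaps the antisense transcript Junos; no source used here states whether counting used strand, so reads of these 2 transcripts cannot be told apart. At E12.5 the SO libraries had 7.62, 7.75 and 7.80 log2 CPM and wild-type CD1 6.55, 6.73 and 6.92. All SO values lay above all wild-type values. At E13.5 SO had 8.03, 7.78 and 7.74 and wild-type 6.48, 6.08 and 5.96, again without overlap. The difference was 0.99 ± 0.24 log2 units (SE, adjusted p = 0.0103) at E12.5, 1.68 ± 0.24 (adjusted p = 2.1e-05) at E13.5 and 1.33 ± 0.17 (adjusted p = 3.2e-06) in the mean, a 2.52-fold higher level. The change of the SO effect between stages was 0.69 ± 0.34 and not called (adjusted p = 0.34). The E12.5 call was lost without wild-type CD1 replicate 1 (0.90, adjusted p = 0.0559). In the mean SO effect, where 18.5% of all genes were called, 3 of 6 erythroid, 3 of 7 liver and 3 of 9 nephron progenitor markers fell. Among the nephron progenitor markers 1 of 9 rose. Of 10 stromal markers 3 rose and 5 fell, and 1 of 5 neural crest and neuron markers (3.61) and 1 of 10 ureteric bud markers rose. The summed erythroid level was 58.6 to 973.5 CPM in SO and 3206 to 3319 in wild-type CD1 at E12.5, and that of the nephron progenitor markers was 221.8 to 247.5 and 431.1 to 460.9. At E13.5 the nephron progenitor sums were 181.1 to 244.0 CPM in SO and 498.5 to 780.5 in wild-type, and the macrophage sums 428.4 to 1055 and 291.8 to 384.2, with 2 of 10 macrophage markers called higher. Their part in the Jun and Klf4 differences was not tested. In SD, Jun ranged from 5.91 to 7.09 log2 CPM over both stages and overlapped wild-type C57BL/6 (difference 0.07, 95% interval -0.29 to 0.42). Ordered by group mean, the 6 groups without stabilised beta-catenin ran from 6.17 to 6.73, each overlapping the next, and the SO groups stood apart at 7.72 and 7.85.

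Fos, the AP-1 subunit that must pair with a Jun protein to bind DNA, had its lowest group mean in wild-type C57BL/6 at E12.5 (1.10 ± 0.27 log2 CPM, SD, n = 3) and its highest in SD at E13.5 (4.59 ± 1.54). The gene lies on chr12:85473890-85477273. The group means between them, in order, were 1.71 (wild-type CD1 E13.5), 2.16 (SO E12.5), 2.79 (wild-type C57BL/6 E13.5), 3.07 (SD E12.5), 3.11 (SO E13.5) and 3.19 (wild-type CD1 E12.5), and every group overlapped its neighbour in this order.

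At E12.5 the SD libraries had Fos at 2.52, 1.45 and 5.23 log2 CPM (89, 22 and 256 reads), and wild-type C57BL/6 had 0.78, 1.24 and 1.26 (17, 28 and 29 reads). All 3 SD values were above wild-type, although 1 of them by a small margin. At E13.5 SD had 4.33, 3.19 and 6.24 and wild-type 3.60, 2.80 and 1.97, so SD replicate 2 lay within the wild-type range. The SD effect was 1.97 ± 0.79 at E12.5 (adjusted p = 0.249), 1.80 ± 0.79 at E13.5 (adjusted p = 0.282) and 1.89 ± 0.56 in the mean of stages (adjusted p = 0.0414), a 3.70-fold higher level. These errors come from a spread shared by all groups. The standard deviation of Fos was 1.948 and 1.541 in the SD groups, and 0.272 and 0.815 in their wild-type.

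The call in the mean of stages was lost under several alternatives, and the size of the difference moved most with SD replicate 3 of both stages. With voom weights the difference was 1.80 (adjusted p = 0.192), and with robust moderation or the 12 libraries of the line it kept its size (adjusted p = 0.095 and 0.0737). Leaving out the replicate 3 library of E12.5 gave 1.35 (adjusted p = 0.135) and that of E13.5 gave 1.47 (adjusted p = 0.137). With both left out, an alternative chosen after their values were seen, the difference was 0.93 (adjusted p = 0.328). The call was also lost without SD E13.5 replicate 1 (adjusted p = 0.0655), without any one of the 3 wild-type libraries of E12.5 (adjusted p from 0.0597 to 0.083), and without replicate 2 (0.0769) or replicate 3 (0.112) of wild-type E13.5. Markers of other cells moved with SD too, beside 7.17% of all genes called in the mean of stages. Of 10 macrophage markers 9 fell in SD (summed level 72.3 to 172.2 CPM at E12.5 and 14.1 to 43.5 at E13.5, against 102.2 to 637.6 and 173.6 to 288.4 in wild-type C57BL/6), none of them at 0 reads throughout a group. Of 10 endothelial markers 7 fell (49.0 to 93.6 and 52.2 to 81.3 CPM, against 53.0 to 186.8 and 127.0 to 135.1), and 3 of 6 erythroid transcripts fell (8.7 to 60.9 and 9.2 to 40.4 CPM, against 568.4 to 833.2 and 41 to 1178). Of 9 nephron progenitor markers 2 rose, and of 10 ureteric bud markers 1 fell. Among the 10 stromal markers 1 rose and 1 fell. The part of any of these cell types in the Fos and Egr1 differences was not tested.

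In SO, the Fos differences had opposite signs at the 2 stages, -1.02 ± 0.79 at E12.5 and 1.39 ± 0.79 at E13.5, with overlapping libraries at both. Neither was called (adjusted p = 0.516 and 0.264), and nor was their difference of 2.42 (adjusted p = 0.31). Fosb, a close relative of Fos, had wider errors. Its SD effect was 2.21 ± 0.93 in the mean of stages (adjusted p = 0.174), with 39, 3 and 78 reads in the SD E12.5 libraries and 2, 4 and 9 in their wild-type. Its SO effect was 0.56 ± 0.93 (adjusted p = 0.749).

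Junb, the Jun family member that can restrain Jun, lies on chr8:84974484-84978718, where Prdx2 overlaps it on the opposite strand. Its 24 values ran from -0.21 (SD E12.5 replicate 1) to 4.39 log2 CPM (SD E13.5 replicate 3), so both extremes were SD libraries. The mean effects were -0.02 ± 0.42 in SD (95% interval -0.90 to 0.85) and 0.20 ± 0.42 in SO (-0.67 to 1.08). Atf3, a stress-induced member of the ATF family that also pairs with Jun, varied less. The SO E12.5 libraries had 2.21, 2.00 and 1.48 log2 CPM and wild-type CD1 2.28, 2.69 and 2.68, all SO values lower (-0.66 ± 0.25, adjusted p = 0.118). At E13.5 the SO values of 2.70, 2.98 and 2.17 overlapped wild-type. In SD, Atf3 was above wild-type in all libraries at both stages, but narrowly. The lowest SD and highest wild-type values were 2.369 and 2.368 at E12.5 and 2.535 and 2.503 log2 CPM at E13.5. The mean differences were 0.55 ± 0.25 and 0.14 ± 0.25, neither of them called (adjusted p = 0.326 and 0.876).

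Egr1 encodes a zinc finger factor that reads out the strength of growth factor signalling. In SD at E12.5 it stood at 5.32, 5.67 and 6.86 log2 CPM against 4.98, 4.87 and 4.90 in wild-type C57BL/6, without overlap. At E13.5 SD had 6.58, 5.66 and 7.39 and wild-type 6.10, 5.95 and 5.77, so 1 SD library was below all 3 wild-type values. The SD effect was 1.03 ± 0.32 at E12.5 (adjusted p = 0.103), 0.60 ± 0.32 at E13.5 (adjusted p = 0.401) and 0.82 ± 0.22 in the mean of stages (adjusted p = 0.0264), a 1.76-fold higher level. It was 0.59 (adjusted p = 0.0822) without SD E12.5 replicate 3, 0.61 (adjusted p = 0.0897) without SD E13.5 replicate 3, and 0.38 (adjusted p = 0.186) without both. The call was lost as well without SD E13.5 replicate 1 (adjusted p = 0.0557), replicate 2 of wild-type E12.5 (0.0514), or replicates 2 (0.051) and 3 (0.0669) of wild-type E13.5, each left out alone, and with voom weights (0.0661), robust moderation (0.0684) or the 12 libraries of the line (0.0879). At E12.5 alone, leaving out SD replicate 1 raised the effect to 1.35 and it was then called (adjusted p = 0.0255). In SO the effect was 0.24 ± 0.22 (adjusted p = 0.522).

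Klf4, a Kruppel-like factor that restrains proliferation, fell in SO. At E12.5 SO had 4.25, 4.46 and 4.83 log2 CPM and wild-type CD1 5.51, 5.28 and 5.39, and at E13.5 SO had 4.73, 5.03 and 4.94 against 5.13, 5.63 and 5.28. All SO values were below all wild-type values at both stages. The difference was -0.88 ± 0.25 at E12.5 (adjusted p = 0.0257), -0.44 ± 0.25 at E13.5 (adjusted p = 0.248) and -0.66 ± 0.17 in the mean (adjusted p = 0.00798), a 1.58-fold lower level. The E12.5 call was lost without either of SO replicates 1 and 2 or wild-type CD1 replicates 1 and 3 (adjusted p from 0.0702 to 0.114), and with voom weights (-0.87, adjusted p = 0.106). The mean of stages stayed called under every alternative tried, from -0.74 to -0.59. Klf4 in SD overlapped wild-type at both stages (0.07 ± 0.17, adjusted p = 0.874).

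Nr4a1, an orphan nuclear receptor induced by calcium and growth factors, had 3.42, 3.11 and 3.38 log2 CPM in SO at E13.5 and 2.88, 2.22 and 2.36 in wild-type CD1. All SO libraries were higher, yet the difference of 0.82 ± 0.42 was not called (adjusted p = 0.205). In SD its 2 highest libraries were again the replicate 3 of each stage (3.46 and 3.00), and the other SD libraries lay between 1.45 and 2.66. The SD effect was -0.23 ± 0.29 (adjusted p = 0.739). Ier2, a small nuclear protein of the early response, had group means from 5.32 to 5.97 log2 CPM. Its effects were 0.25 ± 0.12 in SD (adjusted p = 0.236) and -0.06 ± 0.12 in SO (adjusted p = 0.808). Without SD E13.5 replicate 2 the SD effect of Ier2 was 0.36 and called (adjusted p = 0.0306). Dusp1, the phosphatase that inactivates MAPKs, differed by 0.19 ± 0.24 in SD (adjusted p = 0.731) and 0.32 ± 0.24 in SO (adjusted p = 0.403), and its annotated span overlaps Ergic1 on the opposite strand.

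No member was called by limma for a difference of its genotype effect between stages. For SD 0% of all genes were called in this comparison (753 at an unadjusted p under 0.05, and 0 with voom weights), and for SO 1.33%. At an unadjusted p under 0.05 there was no member for SD and 1 for SO, the latter beside 15.2% of all genes. Voom weights called no member for either, and 134 genes in all for SO.

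The next question was how the members changed from E12.5 to E13.5. In wild-type C57BL/6 stroma 1 of 10 was called, Ier2, beside 3.96% of all genes. In this comparison 4 members (Egr1, Fos, Fosb and Ier2) were above at E13.5 in every library, beside 24.5% of all genes in either direction. In wild-type CD1 no member was called, beside 5.42%, with 1 at an unadjusted p under 0.05 (20.4% of all genes) and none with voom weights. There 2 members (Fos and Jun) were below at E13.5 in every library, beside 24.9%. In SD none was called, beside 0.275%, with 1 unadjusted (11.4% of all genes) and none with voom weights, and none was without overlap, beside 15.9%. In SO none was called, beside 7.1%, with 2 unadjusted (21.2%) and none with voom weights, and 2 (Egr1 and Nr4a1) were above without overlap, beside 28.5%. Junb in SD went from -0.21, 0.48 and 2.76 log2 CPM to 2.47, 2.04 and 4.39, where the 1 high E12.5 library overlapped E13.5. Its stage difference of 1.95 ± 0.59 was not called (adjusted p = 0.153), but without SD E12.5 replicate 3 it was 2.83 and called (adjusted p = 0.0148). Atf3 in SO differed by 0.72 ± 0.25 between stages (adjusted p = 0.0866), and without SO E13.5 replicate 3 by 0.95, then called (adjusted p = 0.0485).

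Ier2 in wild-type C57BL/6 had 5.15, 5.51 and 5.28 log2 CPM at E12.5 and 5.87, 5.98 and 5.85 at E13.5, a rise of 0.58 ± 0.16 (adjusted p = 0.0473). This call was lost when any one of the 6 libraries was left out (adjusted p from 0.0751 to 0.164). Egr1 went from 4.98, 4.87 and 4.90 to 6.10, 5.95 and 5.77 in the same libraries, a larger difference of 1.02 ± 0.32 that was not called (adjusted p = 0.069). That error comes from a spread shared by all 8 groups. The standard deviation of Egr1 was 0.056 and 0.163 log2 units in these wild-type groups, and 0.808 and 0.865 in the SD groups. In wild-type CD1 the stage difference of Egr1 was 0.14 ± 0.32.

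The stage differences of Fos had opposite signs in the 2 wild-type strains. In C57BL/6 it was 0.78, 1.24 and 1.26 log2 CPM at E12.5 and 3.60, 2.80 and 1.97 at E13.5, every later library higher. In CD1 it was 2.73, 3.14 and 3.69 at E12.5 and 2.43, 1.10 and 1.61 at E13.5, every later library lower. They came to 1.69 ± 0.79 (adjusted p = 0.238) and -1.47 ± 0.79 (adjusted p = 0.304). Their difference of 3.17 ± 1.12, a comparison added after these values had been seen, was not called among all genes (adjusted p = 0.93, 95% interval 0.84 to 5.49). No member was called there, beside 0.0145% of all genes, with 3 at an unadjusted p under 0.05 (5.16% of all genes) and none with voom weights. Fosb had the same signs, 2.00 ± 1.32 in C57BL/6 and -1.91 ± 1.32 in CD1, while Jun in CD1 went from 6.55, 6.73 and 6.92 log2 CPM to 6.48, 6.08 and 5.96 (-0.56 ± 0.24, adjusted p = 0.185, not called). In a fit to the 12 libraries of the line alone that Jun difference was called (adjusted p = 0.0213). Macrophage and endothelial markers had differences of the same sign as Fos in the comparison of strains. The median was 1.32 over 10 macrophage markers (0.80 to 1.44) and 1.08 over 10 endothelial markers (0.21 to 1.65). All 10 ureteric bud markers had the other sign, with a median of -1.93 (-5.875 to -0.11). Medians were 1.17 for erythroid, 0.64 for liver, -0.02 for nephron progenitor and -0.17 for neural crest and neuron markers. None of these markers was called in this comparison. The summed macrophage level was 698.9 to 731.8 CPM in CD1 at E12.5 and 291.8 to 384.2 at E13.5, without overlap, and 102.2 to 637.6 and 173.6 to 288.4 in C57BL/6. Their part in the Fos difference was not tested.

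The wild-type strains were compared at each stage. At E12.5 6 members (Dusp1, Fos, Fosb, Ier2, Jun and Junb) were lower in every C57BL/6 library than in every CD1 library, beside 20.1% of all genes without overlap in either direction. None of the 10 was called, beside 0.543% of all genes, with 1 at an unadjusted p under 0.05 (14.2% of all genes) and none with voom weights. The largest of these differences was that of Fos, -2.09, followed by Fosb at -2.02 and Junb at -0.93. At E13.5 Egr1 was above and Atf3 below without overlap (2 members, beside 16.4%). Again none of the 10 was called, beside 0.42% of all genes, with 1 unadjusted (12.2%) and none with voom weights. The summed macrophage and erythroid transcripts did not overlap between the same groups at E12.5, although none of these transcripts was called singly. The summed level of 10 macrophage markers was 102.2 to 637.6 CPM in C57BL/6 and 698.9 to 731.8 in CD1, and that of 6 erythroid transcripts was 568.4 to 833.2 and 3206 to 3319 CPM. Their part in these differences was not tested.

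The spread within groups was wide for several members. The pooled within-group SD of Fos was 1.13 log2 units and that of Fosb 1.85, against a median of 0.19 over all genes. Junb had 0.82, Nr4a1 0.55, Dusp1 0.46, Egr1 0.45, Jun and Klf4 0.34, Atf3 0.27 and Ier2 0.22. Because low levels alone raise the spread, each gene was also ranked among genes within 0.5 log2 units of its own mean level. On that scale Egr1 exceeded 99.2% of 2509 genes, Fos 98.9% of 1144, Fosb 98.7% of 797, Jun 98.4% of 1955 and Klf4 96.9% of 2432. Atf3 exceeded only 8.3% of 1041 genes of like level. These pooled values do not describe every group. For Egr1 the standard deviation was 0.808 and 0.865 in the SD groups and 0.056 to 0.261 in the others. For Jun it was 0.593 and 0.555 in the SD groups and 0.094 to 0.328 in the others. Klf4 had 0.698 in SD at E12.5 and at most 0.369 in any other group.

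**Figure D3:**
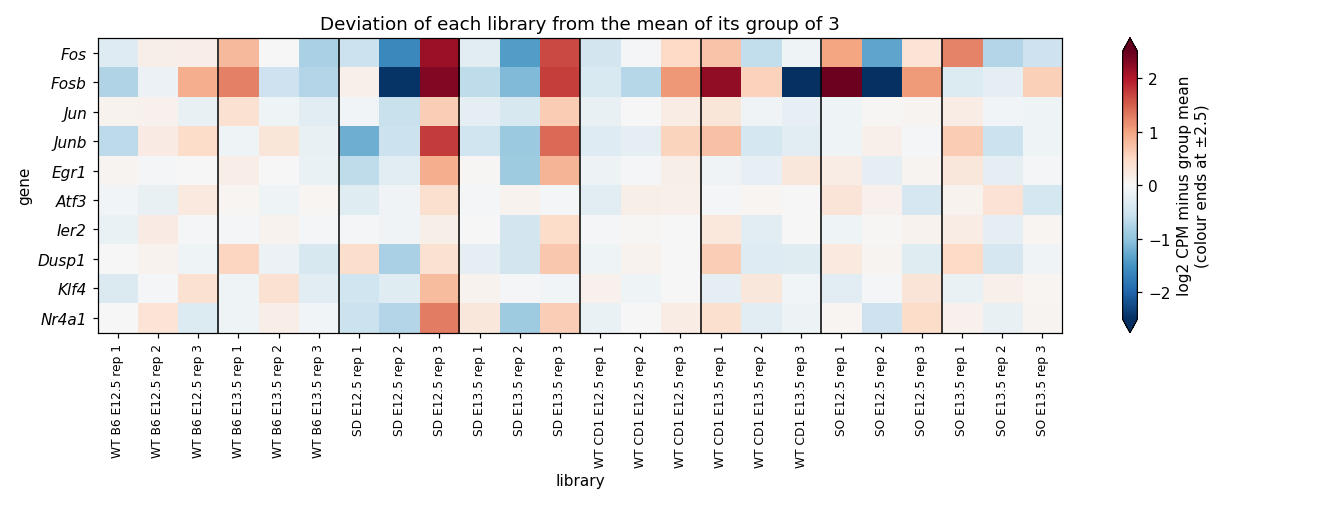
Deviation of each library (horizontal axis, grouped in threes) from the mean of its group in log2 CPM (colour, ending at ±2.5), for the 10 immediate early genes (vertical axis). The columns of SD replicate 3 at both stages are red for nearly every gene, and the deepest colours are those of Fosb and Fos.

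The same libraries were high for many members. SD E12.5 replicate 3 was the highest library of its group for 9 of 10 members and SD E13.5 replicate 3 for 8 of 10, with mean deviations of 1.08 and 0.79 log2 units over the members. In the wild-types and SO the most one-sided libraries were wild-type CD1 E13.5 replicate 1 and SO E13.5 replicate 1, each the highest for 7 of 10, and wild-type C57BL/6 E13.5 replicate 3 and wild-type CD1 E12.5 replicate 1, each the lowest for 8 of 10. Over all 45 pairs of members the median Pearson r of deviations from group means was 0.54, with 23 pairs above 0.5 and 2 below 0.

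Fos was set against each of the other 9 members over the 24 libraries, using deviations from group means and permutation within groups. Egr1 followed it most closely (r = 0.84, rho = 0.87, permutation p = 0.00187). Jun (r = 0.83, rho = 0.70, p = 0.00077 by permutation), Nr4a1 (r = 0.82, rho = 0.75, permutation p = 0.00138) and Junb (r = 0.79, rho = 0.75, permutation p = 0.00347) were next. Dusp1 (r = 0.75, rho = 0.71, permutation p = 0.00504), Fosb (r = 0.74, rho = 0.74, permutation p = 0.00173) and Ier2 (r = 0.65, rho = 0.61, permutation p = 0.00558) also followed Fos at an unadjusted p under 0.05.

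Atf3 (r = 0.26, rho = 0.19, permutation p = 0.395) and Klf4 (r = 0.31, rho = 0.14, permutation p = 0.456) did not pass that threshold. So 7 of 9 members passed it with a positive r, beside 3.56% of 12683 genes with a mean above 0 log2 CPM. None of these genes passed an adjusted p under 0.05 over all 12683 (0%), the members' adjusted permutation p being 0.507 or more. Without the 2 libraries farthest in Fos, which were SD replicate 3 of both stages, the r of the 7 lay between 0.55 and 0.73, and that of Klf4 was 0.05. In the raw values, group differences included, the r of Jun with Fos was 0.26 and that of Egr1 0.82.

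**Figure D4:**
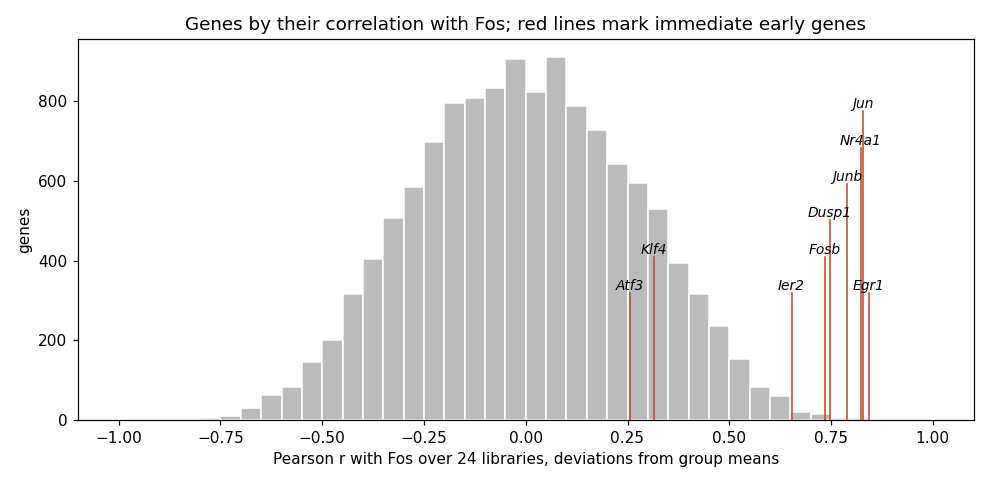
Number of genes (vertical axis) by their Pearson r with Fos over 24 libraries, as deviations from group means (horizontal axis), for 12683 genes; red lines mark the other 9 immediate early genes, and their heights carry no value. The lines of 7 members stand at 0.65 or above and those of Atf3 and Klf4 at 0.26 and 0.31.

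Among the 12683 genes, Egr1, Jun and Nr4a1 ranked 1, 2 and 3 by likeness to Fos in these deviations, and Junb ranked 6. The remaining genes among the first 8 were B3gnt2 (r = 0.81), Ank (0.80), Fhit (0.76) and Rbl2 (0.76), none of them on a list used here. By r of the raw values the first 8 were Fosb (0.84), Cyr61 (0.83), Egr1 (0.82), Zfp36 (0.79), Lasp1 (0.76), Arrb1 (0.75), Gas7 (0.73) and Smox (0.72), of which Cyr61 and Zfp36 are immediate early genes themselves. Over all genes the median r of deviations was 0.00, and 2.66% exceeded 0.5.

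The deviations of Fos were also set against 16 measures of the libraries, in one family. The mean of 34 other immediate early genes had r = 0.69 (rho = 0.64, permutation p = 0.0134, adjusted 0.0716) and that of the AP-1 partners r = 0.63 (rho = 0.61, permutation p = 0.00597, adjusted 0.0716). The endothelial markers had r = 0.44 (rho = 0.54, permutation p = 0.0104, adjusted 0.0716) and the macrophage markers r = 0.39 (rho = 0.42, permutation p = 0.0857, adjusted 0.343). None of the 16 passed after adjustment. The heat shock genes, which respond to damaged protein, had r = 0.08 (rho = -0.01, permutation p = 0.757), the library total r = -0.12 (rho = -0.05, permutation p = 0.759) and Foxd1 r = -0.09 (rho = -0.14, permutation p = 0.719). Without the 2 farthest libraries the r of the other immediate early genes was 0.48, that of the AP-1 partners 0.55 and that of the endothelial markers 0.37.

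Genes that act around the members were taken from lists. Of the 34 other immediate early genes 6 rose and 2 fell in the mean SO effect, and 5 rose and 2 fell in SD. The 8 in SO were Ctgf (1.12, adjusted p = 5.9e-05), Gadd45g (0.92), Klf6 (0.83), Plk2 (0.81), Rhob (0.46) and Ier5 (0.37), which rose, and Btg2 (-0.999, adjusted p = 5.8e-07) and Klf10 (-0.46), which fell. In SD, Btg2 (0.40) and Klf10 (0.44) were higher, with Ctgf (0.69), Gadd45g (0.49) and Trib1 (0.40), while Myc (-0.46) and Rhob (-0.22) were lower. For Ctgf and Rhob the mean of stages in SO covers unlike effects: Ctgf differed by 0.23 at E12.5 (not called) and 2.01 at E13.5, and Rhob by -0.01 (not called) and 0.92. The change of the SO effect between stages was called for both (adjusted p = 0.0138 and 0.00147). The shares of this list, 8 and 7 of 34, stood beside 18.5% and 7.17% of all genes.

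Some feedback inhibitors of the MAPK cascade had values of opposite sign in the 2 genotypes. In SO the Sprouty genes Spry1 (-0.86, adjusted p = 8.95e-10), Spry2 (-0.60) and Spry4 (-0.28) and their relative Spred2 (-0.61) fell. The phosphatase gene Dusp10 (1.12) rose, so that 5 of 13 listed were called, beside 18.5% of all genes. These are means of stages. At E12.5 only Spry1 (-0.78) was called, 1 of 13, beside 8.16% of all genes. At E13.5 1 rose and 5 fell, beside 15.4%. Spred2 differed by -0.33 (not called) and -0.88. The change of the SO effect between stages was called for 1 of 13, beside 1.33%. In SD, Spry4 (0.40, adjusted p = 0.0044), Spred2 (0.28) and Spry1 (0.23) rose and Dusp7 (-0.42) fell, 4 of 13, beside 7.17%. Within stages of SD, Spry4 was called at E12.5 only (0.565), and Spry1 and Spred2 at neither stage. The 2 genotypes were on different strains, and the difference between their effects was not tested. Among the kinases and factors upstream, Srf (0.37) rose and Mapk3 (-0.32), the gene of ERK1, fell in SO, out of 21, beside 18.5%. Among the AP-1 partners, Fosl2 (0.67, adjusted p = 0.0152) and Mafg (0.47) rose and Atf7 (-0.26) fell in SO in the mean of stages. By stage, Fosl2 differed by 0.12 at E12.5 (not called) and 1.21 at E13.5 (adjusted p = 0.0028). Mafg differed by 0.17 (not called) and 0.78 (adjusted p = 0.0018). The change of the SO effect between stages was called for neither (adjusted p = 0.171 and 0.215). Jund, the Jun family member with steady expression, differed by 0.15 in SO and 0.05 in SD and was not called in either (adjusted p = 0.17 and 0.76).

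Genes of other stress pathways were listed as well. Of 13 heat shock genes Hspb1 (-1.29) and Hsp90ab1 (-0.13) fell in SO, beside 18.5% of all genes called. Hspd1 (-0.20) and Hspe1 (-0.23) fell in SD, beside 7.17%. The inducible Hspa1a and Hspa1b, near-identical copies between which reads can be split, differed by -0.57 and -0.62 in SD and by -0.79 and -0.00 in SO, none of them called. In the integrated stress response, which Atf4 leads, 1 gene rose and 4 fell in SO, of 9 tested, beside 18.5% of all genes. In SD 1 of the 9 fell, beside 7.17%. Asns (-0.78, adjusted p = 0.00021) fell in SD and Ddit4 (-0.53, adjusted p = 6.1e-05) in SO, while Atf4 differed by 0.04 and -0.04 and was not called.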

How the data were processed

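RNA of sorted kidney stromal cells was sequenced on an Illumina HiSeq, per the labels. The values deposited by the authors are log2 CPM, counts scaled to TMM library sizes with 0.5 added to each (a form worked out from the values), for 13803 genes in 24 libraries. HISAT2, HTSeq, limma and the mm10 build are named without versions, per the submitters' processing notes. Whole reads were recovered from the deposited log2 values (100% within 0.1 of a whole number) and used for voom weights and scaling alternatives. Floors of 3 reads cover counting error only, since PCR copies cannot be told from molecules.

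The values were fitted with limma 3.58.1 in R 4.3.3 as 8 group means over all 24 libraries, with a mean-variance trend, 16 residual and 6.43 prior degrees of freedom. All groups thus shared 1 estimate of spread per gene. Where groups differed in spread, the errors are too narrow for the more variable groups and too wide for the others. For Fos and Egr1 the SD groups were the most variable. The filter, log2 CPM above 0 in at least 3 libraries, removed 0 genes. Tests were 2-sided, p was adjusted by Benjamini-Hochberg over all 13803 genes, and a gene was called under 0.05. Correlations used deviations from group means and 100000 permutations within groups, and were adjusted over the 12683 genes, or over the 16 library measures. The fit was tested on simulated data. Positions came from GENCODE M21 (GRCm38), near-identical loci from BLAST 2.17.0, promoters from RefSeq. The members and lists were chosen with earlier results of these data known. By rule the text names all members, from each list at most 4 called genes with the smallest p, Jund, Fosl2, Hspa1a, Hspa1b and the 8 genes most like Fos by each measure. Further called genes of the lists of immediate early genes, feedback inhibitors and AP-1 partners, and Atf4, were named after their values were seen. Some results on the AP-1 partners are not reported here. Alternatives were other pseudocounts, scalings, filters, moderation, voom weights, fewer libraries and a replicate block.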

Additional observations from a re-analysis of the deposited data

Results flagged for a closer look

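The stage difference of Fos had opposite signs in the wild-type strains: every C57BL/6 library was higher at E13.5 and every CD1 library lower, and the difference of these differences was 3.17 log2 units. It did not pass the test over all genes (adjusted p = 0.93). Macrophage markers had a median difference of 1.32 in the same comparison and ureteric bud markers one of -1.93, none of them called. The part of these cells was not tested.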

How the results depend on the processing

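The calls of Jun at E13.5 and of Jun and Klf4 in the mean of stages in SO held under every alternative. Other counts of members called moved. For SD in the mean of stages the count of 2 became 0 with voom weights, 0 with robust moderation, 0 in a fit to the 12 libraries of the same line, 0 without the SD replicate 3 libraries of both stages, and 0 to 3 when 1 library was left out. For SO at E12.5 the 2 became 1 with voom weights and 0 to 2 when 1 library was left out, and at E13.5 the 1 became 2 with the 12 libraries of the line. For the stage difference in wild-type C57BL/6 the 1 became 0 with library totals, voom weights or the 12 libraries, and 0 in every fit that left out 1 library. With the 12 libraries of the line the count of 0 became 1 for the stage difference in wild-type CD1 and in SO. Leaving out 1 library moved the count of 0 to between 0 and 1 for SD at E12.5 and for the stage difference in SD and in SO. No called value changed sign. Of 2588 alternative values, 122, all of differences that were not called, had the other sign, among them Fos in SO and Jun and Junb in SD in the mean of stages.

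The replicate numbers did not pair the libraries in all comparisons. The correlation of same-numbered deviations exceeded 0.1 in 2 of 12 pairs for genotype, 2 of 12 for stage and 2 of 6 for strain. The best match was the same number in 5 of 12, 6 of 12 and 3 of 6 pairs. It was so for all 3 pairs of SD with wild-type C57BL/6 at E12.5 (r = 0.198, 0.0715 and 0.2759). The same held for all 3 pairs of SD between stages (r = 0.141, 0.0922 and 0.1488). No pair of SO with wild-type CD1 at E13.5, or of wild-type CD1 between stages, matched best by number. With a replicate block the members called for stage became 3 in wild-type C57BL/6 (Ier2, with Egr1 at adjusted p = 0.0048 and Fos at 0.0363), 1 in wild-type CD1 (Jun, 0.0347) and 1 in SO (Egr1, 0.0251).

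Over all genes, voom weights called 193 for SD at E13.5 (469 in the reported fit), 643 (990) for SD in the mean, 122 (75) and 37 (58) for strain at E12.5 and E13.5, and 1 (2) for the difference between strains in stage. The 12 libraries of the line called 262 (546) for stage in wild-type C57BL/6 and 1 (38) in SD, and the block 1 (0) for the SD effect between stages. With library totals the genes higher among those called were 222 of 590 for stage in wild-type C57BL/6 (287 of 546) and 32 of 47 for strain at E13.5 (46 of 58). Leaving out 1 library called 92 to 395 genes (237) for SD at E12.5, 244 to 370 (469) at E13.5 and 0 to 23 (0) for their difference, 720 to 883 (1127) for SO at E12.5 and 61 to 533 (183) for the SO effect between stages. It called 83 to 605 (546), 290 to 789 (748), 0 to 154 (38) and 356 to 883 (980) for stage in wild-type C57BL/6, wild-type CD1, SD and SO, 18 to 457 (75) and 28 to 86 (58) for strain, and 2 to 5 (2) for the difference between strains in stage. Depth limits the low members: Fos had 11 to 552 reads per library and Fosb 0 to 152.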
